A study of Homo sapiens with 3 samples.

Results

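The binding of an HA-tagged TFE3 fusion protein was examined at PAX8, over chromosome 2 positions 113950000 to 114100000 on hg19, a window of 150 kb that holds the gene and the sequence before and after it. Its members are all peak summits of both deposited lists in that window, chosen by position and not by score. They number 11 of 44983 summits in replicate 8 and 5 of 28084 in replicate 9, or 16 of 73067 in all. Both ChIP libraries came from HK-2, a human cell line of kidney proximal tubule origin, in cells that express HA-PSF-TFE3 from a doxycycline-inducible construct and had received 0.2 µg/ml doxycycline for 24 h. PSF is another name of SFPQ. The third sample was input DNA, chromatin that was not immunoprecipitated, from cells given the same doxycycline treatment. The authors called peaks against it, and its signal was not used here. No uninduced cells were profiled in this series, so summits before induction are unknown. The paper separately reports quantitative PCR on immunoprecipitated DNA at PAX8 peaks, in untreated and doxycycline-treated cells, with fusion binding after doxycycline. Those measurements were not used here. Each replicate is a single clone of the inducible line, and clone and replicate cannot be told apart. Which clone the input library came from is not known here. The series' title and labels name PSF-TFE3, whereas its design text names PRCC-TFE3; the labels were followed, and the identity of the fusion was not tested.

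PAX8 is a paired-box transcription factor that, together with PAX2, specifies the nephric lineage during kidney development, and it stays on in the tubular epithelium of the adult kidney. Pathologists use it as a marker of renal epithelial tumors. TFE3 is a basic helix-loop-helix leucine zipper factor of the MiT/TFE family, which controls lysosomal genes and binds E-box sequences such as CACGTG, while SFPQ is a nuclear RNA-binding protein. The study asked how the fusion might act on PAX8 expression, and the comparison made here is whether and where both libraries placed the fusion at this gene. A summit is the single base of highest enrichment in a peak. Its score is −log10 of the authors' q-value, and scores are not normalised between libraries, so ranks within a list, from 1 for the highest score, are set beside them.

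HA-PSF-TFE3 was placed inside PAX8, after its 3′ end and before its start in both libraries. The gene runs on the minus strand from 114036498, its start, to 113973574, its 3′ end, a body of 62.9 kb. Replicate 8 had 4 summits in the body, 5 in the 63.5 kb before the start and 2 in the 23.6 kb past the 3′ end. Replicate 9 had 3 in the body and 1 on each side. The strongest summit of the window lay in the body in both libraries, about 37 kb after the start. The libraries thus differed most in the stretch before the gene, where replicate 8 had 7.87 summits per 100 kb and replicate 9 had 1.57. With 2 libraries of 1 group, no test of any of these differences was possible.

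**Figure D1:**
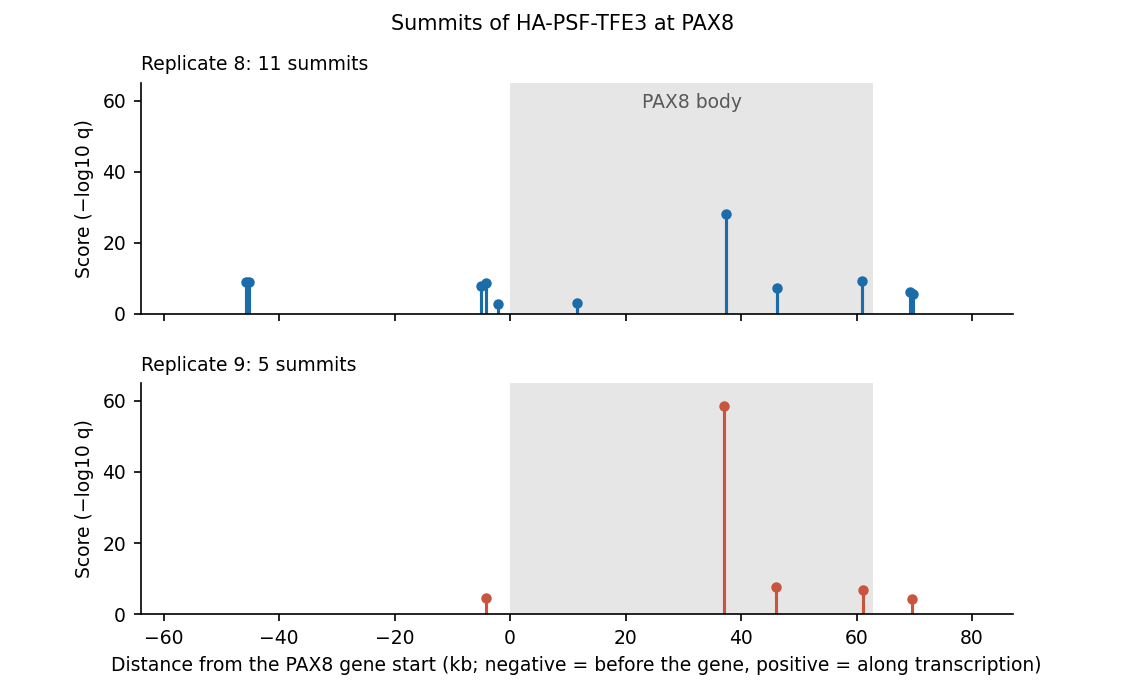
Score (−log10 q-value) of each summit against its distance from the PAX8 gene start in kb, with replicate 8 above and replicate 9 below; the shaded bar is the gene body. One tall line stands inside the body in each library, at 28.0 in replicate 8 and 58.6 in replicate 9, and every other summit is under 10.

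No summit of either list fell at the gene start itself. The nearest lay 2056 bp before it in replicate 8 and 4188 bp before it in replicate 9. The nearest after the start lay 11.5 kb into the gene in replicate 8 and 37.0 kb in replicate 9. The 250 bases before the start are shown because they are the promoter stretch in which neither library had a summit. They are RefSeq sequence on GRCh38.p14, chr2:113278922-113279171, minus strand, a build that differs from that of the summits. They are written 5′ to 3′ with the one CANNTG word, the general E-box, in capitals.
PAX8 promoter: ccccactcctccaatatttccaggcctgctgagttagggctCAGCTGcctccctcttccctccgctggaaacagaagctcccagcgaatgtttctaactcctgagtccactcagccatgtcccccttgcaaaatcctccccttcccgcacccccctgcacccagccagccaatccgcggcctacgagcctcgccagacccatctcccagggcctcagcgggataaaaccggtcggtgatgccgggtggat

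That word begins 209 bases before the start. On both strands together, a CANNTG word is found in the same 250 bases of 61.8% of the 35116 gene starts in the table, so its presence is common. The palindromic E-box CACGTG, which is also a CANNTG word, was not found in the PAX8 stretch and is held by 6.34% of gene starts. CATGTG, an E-box that reads CACATG on the other strand, was not found either and is held by 9.42%. TGACTCA, the letters bound by AP-1 factors, which read TGAGTCA on the other strand, was likewise not found and is held by 4.20%. These letters were looked for in this stretch only. Sequence under the summits was not analysed here, because the genome sequence at hand was hg38.

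The strongest site was in the body. In replicate 8 its summit lay at 113999116, 37.4 kb after the start and 59.4% of the way along the gene, with a score of 28.0. That score ranked 3904 of 44983, the top 8.68% of the list, and 376 of 3816 on chromosome 2. In replicate 9 the summit lay at 113999449, with a score of 58.6. That ranked 932 of 28084, the top 3.32%, and 91 of 2358 on chromosome 2. Each was the summit of its list closest to the other, yet they lay 333 bp apart, beyond the 200 bp within which a summit was counted as a partner. The best-scoring summits of both lists at PAX8 are therefore mutually nearest but are not a shared summit by that distance. As a mutually nearest pair they are called the strongest site here, though whether they mark the same peak is not known.

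Such a distance was uncommon among summits this strong. Of the 3920 replicate 8 summits that scored at least as high, 92.3% had a replicate 9 summit within 200 bp, with a median distance of 43 bp, and 155 (3.95%) had none nearer than 333 bp. Of the 936 replicate 9 summits that scored at least as high, 88.9% had a replicate 8 summit within 200 bp, and 63 (6.73%) had none nearer than 333 bp. The site stood 5.36 percentage points nearer the top of its list in replicate 9. Ranked among the 24361 mutually nearest pairs within 500 bp, which are equal in number in both libraries, it stood at 15.7% in replicate 8 and 3.69% in replicate 9, a difference of 12.0 points. Over all these pairs the same difference had quartiles of -12.9 and 13.2 points. That of the PAX8 site lay between them, near the upper one. By full-list ranks, which list length affects, the quartiles were -27.0 and 0.383 points, and the site's 5.36 lay above both. Among the 4410 of these pairs in the top 10% of replicate 8 they were -14.8 and -0.938 points. The site's score ratio of 2.09, replicate 9 over replicate 8, was reached by 7.68% of all pairs and 3.56% of those 4410. Those 4410 were picked by their replicate 8 rank, a choice that by itself pushes the differences down and the ratios down. Their values therefore do not tell how unusual the PAX8 site is. Whether the 2 summits mark 1 peak or 2 neighbouring ones cannot be told from summit positions, since the lists hold no peak widths. The paper describes identical PAX8 peaks in its 2 clones and supplies peak calls for each. Those peaks were not matched to the summits here.

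Apart from this site, the body summits were of middle or low rank. A site 46.2 kb after the start lay at 113990330 in replicate 8 and 113990407 in replicate 9, 77 bp apart. Its scores were 7.24 and 7.70, which stood at 55.1% and 61.9% of the lists counted from the strongest. A site near the 3′ end, 61.0 kb after the start, lay at 113975503 and 113975472, 31 bp apart, with scores of 9.27 and 6.91 that stood at 44.2% and 67.2%. Both sites were shared within 200 bp. The fourth body summit of replicate 8, at 114024979 and 11.5 kb after the start, had no replicate 9 summit within 15.7 kb. Its score of 3.14 fell in the lowest score decile of the list, in which 10.1% of summits had a partner.

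Before the start, 1 site was shared. It lay 4.19 kb away, at 114040690 in replicate 8 and 114040686 in replicate 9, and its summits were 4 bp apart, the closest match in the window. The scores were 8.76 and 4.66, and the ranks stood at 47.0% and 84.3% of lists that differ in length. Ranked among paired summits only, the site stood at 75.01% and 88.8%, a gap of 13.8 points in favour of replicate 8. Replicate 8 placed another summit on each side of this site. One, at 114041549, scored 7.72, at 52.1% of its list, and lay 863 bp from the replicate 9 summit. The other, at 114038554 and 2056 bp before the gene, scored 2.77 and was the weakest member, at 94.5% of its list. Neither had a partner within 200 bp.

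Farther out, replicate 8 had summits at 114081665 and 114082263, 45.2 and 45.8 kb before the start, with scores of 9.08 and 8.996. Both stood just above the median of the list, at 45.9% and 46.0% (median score 8.20), and the nearest replicate 9 summit was 41.0 and 41.6 kb away. In their score decile, 49.9% of summits had a partner within 200 bp and 12.1% had no replicate 9 summit within 41.0 kb. These summits and the fourth in the body are the members with no counterpart of any rank within 5 kb. Absence from a list means only that no peak passed the authors' threshold there. The lists hold no read counts, and the part of depth in the absence was not tested.

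Past the 3′ end, replicate 8 had summits at 113966805 and 113967217, 6.77 and 6.36 kb beyond the gene, with scores of 5.58 and 5.999. These scores stood at 66.68% and 63.55% of the replicate 8 list. Replicate 9 had 1 summit there, at 113966903, with a score of 4.35 that stood at 86.5% of the list. It lay 98 bp from the first replicate 8 summit and 314 bp from the second. In RefSeq's gene order on GRCh38.p14, PSD4 is the next gene past this end, ZNG1B is the next protein-coding gene before the start, and the antisense RNA PAX8-AS1 lies within PAX8. Exons, introns and these neighbours were not set against the summits, because no hg19 annotation was at hand. Which gene a summit acts on cannot be told from its position.

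Recurrence was counted over all members. In replicate 8, 4 of 11 summits had a replicate 9 summit within 200 bp (36.4%, 95% Clopper-Pearson interval 10.9 to 69.2%), beside 47.9% of the full list. In replicate 9, 4 of 5 had a replicate 8 summit within it (80.0%, 95% Clopper-Pearson interval 28.4 to 99.5%), beside 76.6% of the full list. Both shares were near that background, and both intervals hold it. Allowing 500 bp, which admits the strongest site, the counts were 6 of 11 beside 55.5% and 5 of 5 beside 87.7%. Every replicate 9 summit at PAX8 thus had a replicate 8 summit within 500 bp, and 5 replicate 8 summits had no replicate 9 summit that near. The intervals assume independent summits, and neighbouring summits are not independent, so the stated level is only nominal. Both 200 bp shares count the same 4 pairs, once from each list. With 11 and 5 summits the intervals are wide enough to hold most backgrounds, so holding this one tells little.

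**Figure D2:**
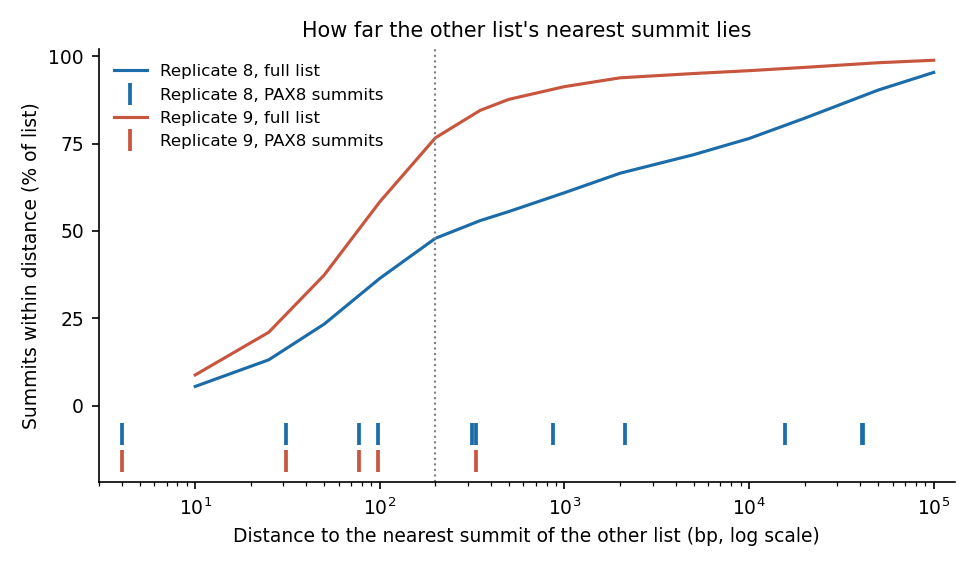
Ticks give the distance in bp (log scale) from each PAX8 summit to the nearest summit of the other list, and curves give the percent of each full list within that distance; the dotted line marks 200 bp. In each library 4 ticks lie left of the line; the strongest site is the tick at 333 bp, and 3 replicate 8 ticks lie beyond 10 kb.

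The 4 pairs within 200 bp were a median of 54 bp apart (range 4 to 98 bp), beside 52 bp over all 21518 mutually nearest pairs. Ranked in the full lists, all 4 stood nearer the top in replicate 8, by 6.80 to 37.3 percentage points, with a median of 21.4 beside a median of 10.4 in the same direction over all pairs. The lists differ in length, and ranked among paired summits only, 3 of 4 stood nearer the top in replicate 8. The site 46.2 kb after the start then stood at 82.1% in replicate 8 and 68.7% in replicate 9. The median difference on that ranking was 1.54 points in favour of replicate 8, beside -0.246 over all pairs. These pairs were also weak ones. Their median standing was 51.1% in replicate 8 and 75.8% in replicate 9, beside 27.4% and 43.8% over all pairs.

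**Figure D3:**
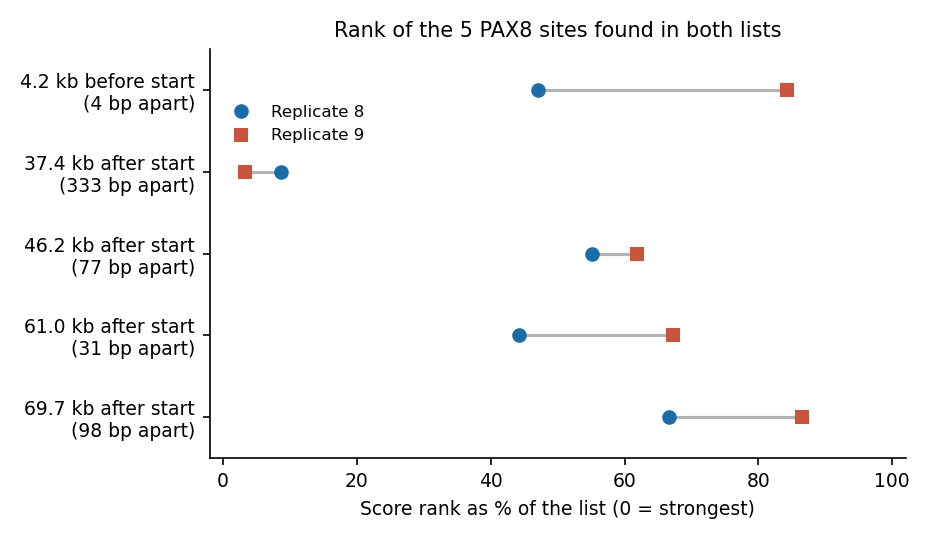
Score rank as a percent of the list (0 is the strongest) in replicate 8 (circles) and replicate 9 (squares) for the 5 sites with mutually nearest summits within 500 bp, labelled by distance from the gene start. The site in the body at 37.4 kb stands within the top 10% in both lists and, by these full-list ranks, alone stands nearer the top in replicate 9; the other 4 lie between 44.2% and 86.5%.

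Taken as a set, the scores at PAX8 were those of 1 strong summit with weak ones around it. In replicate 8 the strongest score was 28.0 and the next 9.27, and 5 of 11 summits scored above the list's median of 8.20. In replicate 9 the strongest was 58.6 and the next 7.70, and 1 of 5 scored above the list's median of 10.5. Only 1 summit in each library scored 10 or more, whereas 41.7% and 51.6% of the full lists did. Replicate 8 summits with a partner within 200 bp had a median score of 7.997 and those without one, which include the strongest site, 7.72.

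The PAX8 window held more summits than most windows of its length when summits of any score were counted. The mean was 8 ± 4.24 summits per library (SD, n = 2). The genome was divided into windows of 150 kb, of which 11931 held a summit of either list. The median window held 3 replicate 8 summits and 2 replicate 9 summits. At least 11 replicate 8 summits were found in 5.64% of windows, and at least 5 replicate 9 summits in 14.6%. With a minimum score of 10, PAX8 held 1 summit in each library. At least as many were then held by 95.0% of windows in replicate 8 and 80.4% in replicate 9. These are shares of the 8704 windows with such a summit in either list. High shares are largely set by that choice of windows and are not comparable with those for summits of any score. A best score at least as high as that at PAX8 was found in 24.7% of windows in replicate 8 and in 6.55% in replicate 9. These percentages describe windows and test nothing about PAX8, which was chosen for its role in the study.

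**Figure D4:**
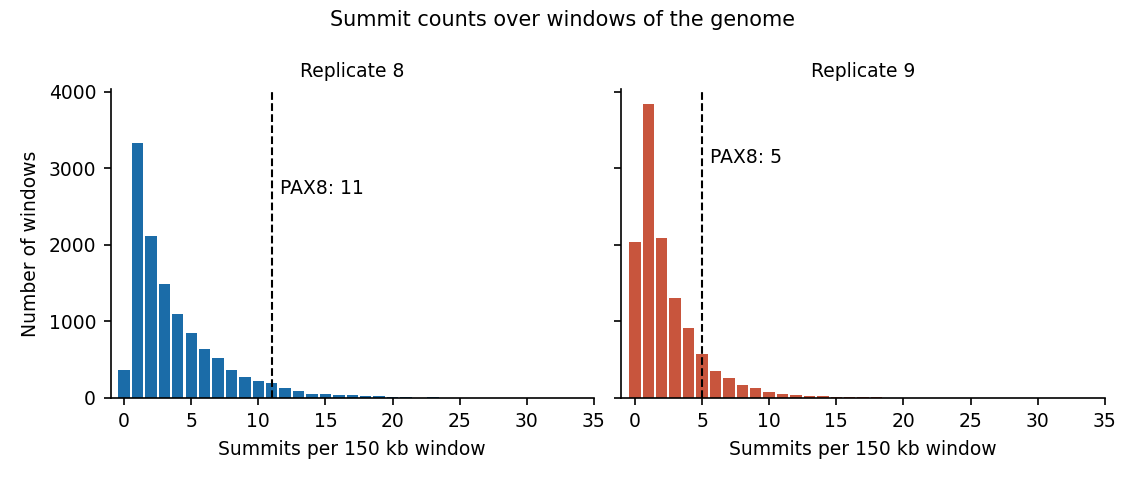
Number of 150 kb windows of the genome by the count of summits they hold, for replicate 8 (left) and replicate 9 (right); the dashed line marks the PAX8 window. The lines at 11 and 5 summits lie to the right of the medians of 3 and 2, with 5.64% and 14.6% of windows holding as many or more.

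Replicate 8 had 2.20 times as many summits at PAX8 as replicate 9, beside 1.60 times in the full lists and 1.62 times on chromosome 2. When the replicate 8 list was reduced to its 28084 strongest summits, the length of the other list, 7 of the 11 were left. The 4 that dropped out were both summits past the 3′ end, the one 11.5 kb into the gene and the one 2056 bp before it. Close spacing added to the replicate 8 count. There, 6 of 11 summits lay within 1 kb of another, as pairs 412, 859 and 598 bp apart, beside 19.2% of the full list. All of these pairs lay outside the body. In replicate 9, 0 of 5 lay within 1 kb of another, beside 9.51% of its list.

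Long stretches without a summit flanked the PAX8 members on both sides, though stretches of such length were not rare. Past the 3′ end, the next summit beyond the window was at 113835832 in replicate 8, with a score of 8.67 and after 131 kb without a summit, and at 113814147 in replicate 9, with a score of 1.93 and after 153 kb. Before the start, the next lay at 114195608 and 114195642, 34 bp apart, with scores of 7.56 and 5.92, after 113 and 155 kb. Stretches at least as long made up 11.1% and 12.9% of those in the replicate 8 list and 16.7% and 16.5% of those in the replicate 9 list. The members were also split among themselves. Their longest inner stretch without a summit was 40.1 kb in replicate 8 and 41.2 kb in replicate 9. The list medians were 15.6 and 27.8 kb. The outermost members just inside the window, at 113966805 and 114082263 in replicate 8 and at 113966903 and 114040686 in replicate 9, scored 5.58, 8.996, 4.35 and 4.66. A window with either edge moved outward by up to 95.6 kb would hold the same members.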

How the data were processed

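HA-PSF-TFE3 was immunoprecipitated by the authors from enzymatically cut chromatin on an anti-HA affinity matrix. The deposited values are 1 summit of 1 bp per peak with a score, −log10 of the q-value, from MACS2 peak calling of each library by itself, with input as control, per the labels and the study's methods. The sources name both hg19 and hg38, and both a q-value cutoff of 0.05 (a score of 1.30) and a p-value cutoff. Lowest scores were 1.37 and 1.33. In replicates 8 and 9, 364 and 262 summits had positions past the last base of their hg38 chromosome, so the lists are not on hg38, and hg19, which the processing notes name, was used. Gene positions are those of the selection rule. They span 62925 bp, the RefSeq length on GRCh38.p14, and no coordinates were converted. Positions are counted from 1. Partners are summits of the other list within 200 bp, and pairs are mutually nearest. Deciles, ranks and windows used full lists.

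The window and lists were chosen with earlier results of these data known. Spacing, summit-free stretches, promoter letters and the comparison of strong summits were added after the data were seen. Every summit in the window is given, and PAX8 and its neighbours are the genes named. Alternatives were distances of 50 to 1000 bp, minimum scores, narrower windows, merging, equal list lengths and other ranks. Motifs under summits and other kidney lineage genes were planned and not run, for want of an hg19 genome and annotation. Distance functions recovered 100% of partners planted in a simulated list of 28084 sites. The lists hold no read counts, and the read totals that the study's reporting summary states were not used here. Python 3.11.15, numpy 2.4.6, pandas 2.3.3, scipy 1.17.1 and matplotlib 3.10.9 were used.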

Additional observations from a re-analysis of the deposited data

How the results depend on the processing

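A minimum score of 10 left 1 summit in each library, the strongest, and its partner share was then 0% in both. The percent of windows with at least as many became 95.0% in replicate 8 and 80.4% in replicate 9. Only windows holding such a summit in either list were counted, which largely sets those shares. A minimum score of 5 left 3 summits in replicate 9 and 9 in replicate 8. The body alone held 4 and 3 summits. Either library alone gave 5 to 11 summits for the mean of 8. Within 500 or 1000 bp, the replicate 9 partner share was 100%. Ranked on chromosome 2 only, the strongest summit stood at 9.85% in replicate 8 and 3.86% in replicate 9, and 4.97% of that chromosome's windows held as many replicate 8 summits. Among paired summits only, the median rank difference was -1.54 points, where negative values favour replicate 8. The other partner shares stayed within their intervals, which are wide at 11 and 5 summits. Mean in place of best ranks for ties, merging summits under 500 bp apart and windows started 75 kb later moved no value beyond its margin. No paired analysis was possible because the 2 ChIP libraries form 1 group. Alternatives for sequence under summits and for other genes were not run.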
